A study of Schizosaccharomyces pombe with 12 samples.

Results

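The genes described here lie near the 4 ends of chromosomes I and II of the fission yeast *Schizosaccharomyces pombe*. They were chosen by name, as the probe sets whose systematic gene name begins with any of 14 clone names from these ends, leaving out the telomere-linked helicase *tlh2*, the helicase remnant SPAC212.06c and genes numbered in the *meu* and *mug* (meiotic) series. This gave 70 of the 4875 *S. pombe* probe sets of the array, and each is referred to as a gene from here on. Of the 70, 56 match a single gene (suffix _at) and 14 match several near-identical genes (suffix _s_at), so that a value of the latter cannot be assigned to a single copy. By order along the chromosomes, 28 lie at the left end of chromosome I, 11 at its right end, 22 at the left end of chromosome II and 8 at its right end, while SPBPB2B2.03c could not be placed. The innermost were the genes in positions 58, 28, 55 and 22 counted from these ends.

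Both strains carry a shortened *rpb1*, the gene of the large RNA polymerase II subunit that bears the CTD, marked with *ura4* in cells of mating type h- with *ura4-D18* and *leu1-32*. The control, *rpb1-12XCTD*, has 12 wild-type heptads in this C-terminal domain (CTD), while *rpb1-12XS2ACTD* has alanine for serine 2 in each of them. Cells grown in YES medium received 0.5 µM latrunculin A (LatA), which sequesters actin monomers, or the solvent DMSO for 3 h, and 3 biological replicates of each of the 4 groups were hybridized, making 12 arrays. The controls thus share the truncated CTD, and a full-length CTD was not analysed here. RNA came from whole cultures, so a change in a few cells and a smaller change in all cells cannot be told apart.

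Subtelomeres are the regions next to the telomeres. In fission yeast they are packed in heterochromatin, which is marked by methylated histone H3 lysine 9 and bound by Swi6p and which keeps most of the genes there at low expression, and more internal stretches hold condensed chromatin that depends on other factors. The regions carry gene families shared between ends, among them the DUF999 proteins of unknown function, and many genes for transporters, sugar metabolism and cell surface glycoproteins that are used only under particular growth conditions. Phosphorylation of CTD serine 2 accompanies transcript elongation and recruits histone-modifying and RNA-processing factors.

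Values are log2 expression as deposited, centred so that the median of each gene over the 12 arrays is 0, so levels cannot be set against each other between genes. The 4 groups were fitted jointly in limma, and a difference counted as called where the fold change exceeded 1.5 and the p-value, adjusted over all 4875 genes by the Benjamini-Hochberg method, was under 0.05. Before the results, some features of the arrays need stating. For replicate 1 of *rpb1-12XS2ACTD* with DMSO, the correlation over all genes was 0.45 and 0.30 with the other arrays of its group. It was 0.31, 0.75 and 0.71 with replicates 1, 2 and 3 of *rpb1-12XCTD* with DMSO. Results with DMSO are therefore given with and without this array, below called the array that stood apart. Replicate 1 of *rpb1-12XCTD* with DMSO also correlated weakly with replicates 2 and 3 of its group (0.30 and 0.54). Leaving it out lowered the count of DMSO calls, while leaving out the array that stood apart raised it. For single genes mostly the latter is given. The median SD between replicates was 0.20 for *rpb1-12XCTD* with DMSO against 0.097 for *rpb1-12XS2ACTD* with DMSO and 0.068 and 0.078 for the LatA groups, so that p-values from the shared spread can be too small where the DMSO arrays enter.

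The subtelomeric genes stood higher in *rpb1-12XS2ACTD* with either treatment. With DMSO, between 23 and 28 of the 70 genes lay above 0 on the 3 *rpb1-12XCTD* arrays, against 40 to 49 on the 3 *rpb1-12XS2ACTD* arrays. With LatA these counts were 15 to 29 and 42 to 53. The ranges of the strains do not overlap with either treatment. On replicates 1, 2 and 3 of *rpb1-12XCTD* with DMSO the medians of the 70 genes were −0.186, −0.110 and −0.032. Those of all genes were −0.164, −0.105 and 0.070, so on replicates 1 and 2 the 70 lay near the general level. With LatA the control medians were −0.072, −0.147 and −0.277, against 0.024, 0.036 and 0.022. On the *rpb1-12XS2ACTD* arrays they were 0.052 to 0.126, against −0.028 to 0.037. For 26 genes all *rpb1-12XS2ACTD* arrays with DMSO lay above all *rpb1-12XCTD* arrays and for 3 they lay below, where 8.35% and 1.19% of all genes did so. With LatA this held for 33 and 7 genes, against 15.6% and 32.1%. The median difference over the 70 genes, *rpb1-12XS2ACTD* minus *rpb1-12XCTD*, was 0.31 log2 with DMSO and 0.30 with LatA, against 0.06 and −0.05 over all genes.

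With DMSO, 8 of the 70 genes were higher in *rpb1-12XS2ACTD* and 0 were lower, where 0.841% of all genes were called higher and 0.0205% lower. They were the DUF999 genes SPAC977.06 and SPBC1348.01, SPAC750.07c of the telomeric duplications, the pseudogenes SPAC212.05c and SPAC977.04, the zinc finger gene SPBC1348.12, the glycoprotein gene *pfl9* and *hhy1*. Leaving out the replicate 1 array of *rpb1-12XS2ACTD* with DMSO raised the count to 21 genes, of which 19 were higher and 2 lower, and all 8 were among them, while the share of all genes called in either direction rose to 4.12%. The count was 0 without replicate 3 of that group and 1 without its replicate 2, and 0.0615% of all genes were called in each case. Without replicates 1, 2 and 3 of *rpb1-12XCTD* with DMSO it was 3, 4 and 16, against 0.369%, 0.697% and 3.14% of all genes. The methods' test, which takes the spread of each gene from the 6 arrays alone, called 0 of all genes after adjustment. Without adjustment it called 15 of the 70, all 15 higher, and 1.54% of all genes.

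With LatA, 12 of the 70 genes were called higher in the mutant strain and 1 lower, where the shares over all genes were 1.39% and 1.5%. Among them were 7 of the 8 genes called with DMSO, so 87.5% of the DMSO calls and 53.8% of the LatA calls were made in both comparisons. Over all genes 26 were called in both, 61.9% of the DMSO calls and 18.4% of the LatA calls. The other 6 were *pho841*, *eno102*, *mfs2*, SPBC1348.11, SPBPB10D8.01 and SPBPB2B2.03c, while SPAC977.04 was called with DMSO alone. The methods' test called 13 genes, 11 of them the same, and 3.12% of all genes. Fewer genes passed without single LatA arrays. Without replicates 1, 2 and 3 of *rpb1-12XCTD* the counts were 7, 5 and 9, against 0.964%, 1.03% and 1.29% of all genes. Without replicates 1, 2 and 3 of *rpb1-12XS2ACTD* they were 6, 4 and 4, against 1.39%, 0.718% and 0.821%. *hhy1*, *pho841* and SPAC212.05c stayed called with any array left out and under the other alternatives run.

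**Figure D1:**
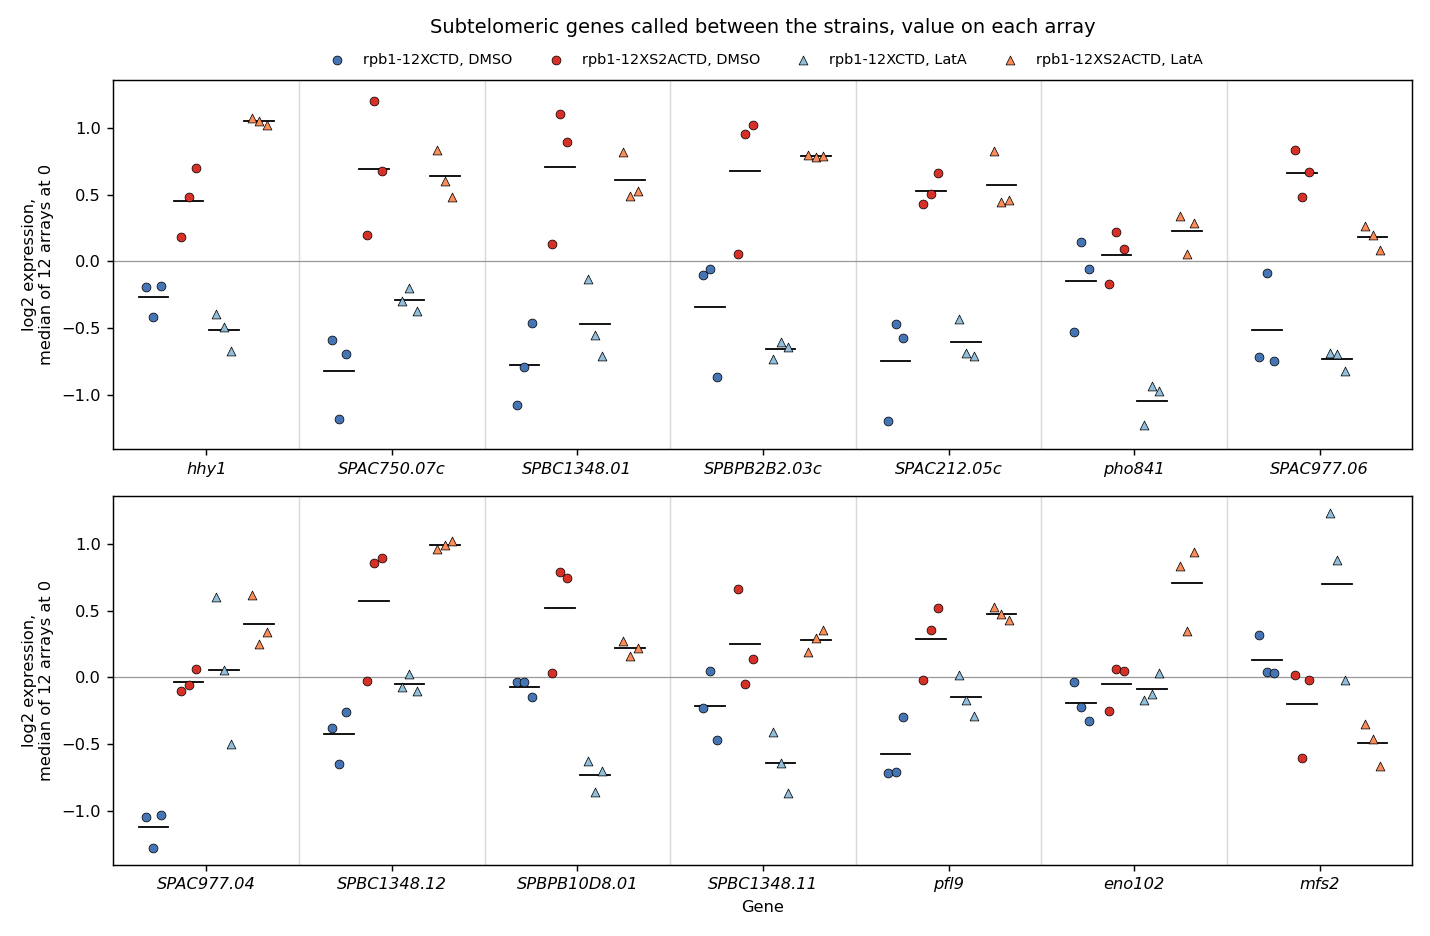
Log2 expression (y axis, median of the 12 arrays at 0) of the 14 subtelomeric genes called between the strains with DMSO or LatA, a point for each array and a bar for the mean of the 3 arrays of a group. In 13 of the genes the *rpb1-12XS2ACTD* means lie above the *rpb1-12XCTD* means of the same treatment, and *mfs2* shows the reverse.

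The telomeric duplications and DUF999 genes, families repeated at several chromosome ends, were higher in 3 of 7 genes with DMSO and in 3 of 7 with LatA, with medians of 1.18 and 0.93, and all 7 differences were above 0 with either treatment. SPAC750.07c, in position 2 from the right end of chromosome I, gave −0.59, −1.18 and −0.69 on the *rpb1-12XCTD* DMSO arrays and 0.20, 1.20 and 0.68 on those of *rpb1-12XS2ACTD*. With LatA it gave −0.30, −0.20 and −0.37 against 0.83, 0.60 and 0.48. The strains did not overlap with either treatment, the differences being 1.51 ± 0.22 (SE, adjusted p = 0.0161) and 0.93 ± 0.22 (adjusted p = 0.0378).

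The DUF999 gene SPBC1348.01, which occupies the matching position 2 at the left end of chromosome II, ran from −1.07, −0.79 and −0.46 in *rpb1-12XCTD* with DMSO to 0.13, 1.10 and 0.89 in *rpb1-12XS2ACTD*, and from −0.13, −0.55 and −0.71 to 0.82, 0.49 and 0.53 with LatA. On these arrays its strains were again apart, by 1.49 ± 0.24 (adjusted p = 0.0243) and 1.08 ± 0.24 (adjusted p = 0.0328). Another DUF999 gene, SPAC977.06 in position 19 of the left end of chromosome I, gave −0.72, −0.09 and −0.75 against 0.83, 0.49 and 0.67 with DMSO and −0.69, −0.69 and −0.82 against 0.27, 0.20 and 0.09 with LatA. Its differences were 1.18 ± 0.16 and 0.92 ± 0.16 (adjusted p = 0.0146 and 0.0117), and replicate 1 of *rpb1-12XS2ACTD* was here the highest of its group. All 3 are _s_at probe sets, which read several copies at once. With the replicate number as a block in the fit of all 12 arrays, the LatA calls of SPAC750.07c and SPBC1348.01 were lost (adjusted p = 0.0784 and 0.0654), while with the block in the 6 LatA arrays alone both were kept.

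The DUF999 gene SPBPB2B2.07c had the largest DMSO difference of the 70 with all arrays but was not called. It gave −1.94, 0.56 and −1.04 in *rpb1-12XCTD* with DMSO against 2.01, 0.67 and 0.89 in *rpb1-12XS2ACTD*, a difference of 2.00 ± 0.52 (adjusted p = 0.114). The groups did not overlap, but replicate 2 of the control came close to the lowest *rpb1-12XS2ACTD* array. Without that control array the difference was 2.68 and called (adjusted p = 0.0152), and without the array that stood apart it was 1.59 and not called. With LatA its difference was 1.36 (adjusted p = 0.143), which the methods' test called (adjusted p = 0.0285). SPAC212.04c, the only gene of this group read by a probe set of its own, differed by 0.75 with DMSO (adjusted p = 0.0667) and by 1.00 without the array that stood apart (adjusted p = 0.000149), while *ftm4* and *ftm3* of the telomeric duplications differed by 1.17 and 0.47 with DMSO, neither called with all arrays. Without that array *ftm4* was called, at 1.30 (adjusted p = 0.0469).

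Of the 9 pseudogenes, 2 were higher with DMSO and 3 with LatA, and 0 were lower. Without the array that stood apart 3 were higher with DMSO and 1, SPAC11D3.11c, was lower (−0.73, adjusted p = 0.0358). SPAC212.05c, in position 8 from the left end of chromosome I, gave −1.19, −0.47 and −0.57 in *rpb1-12XCTD* with DMSO against 0.43, 0.50 and 0.66 in *rpb1-12XS2ACTD*, and −0.43, −0.69 and −0.70 against 0.83, 0.44 and 0.46 with LatA. The strains were apart with both treatments, the differences were 1.28 ± 0.18 and 1.18 ± 0.18 (adjusted p = 0.0146 and 0.00684), and LatA moved the gene by 0.14 and 0.04 in the 2 strains. SPBPB2B2.03c, the remains of a permease gene, gave −0.10, −0.06 and −0.86 against 0.06, 0.95 and 1.02 with DMSO and −0.73, −0.60 and −0.64 against 0.80, 0.78 and 0.79 with LatA. It was called with LatA, at 1.45 ± 0.25 (adjusted p = 0.0117), and with DMSO its difference of 1.02 was not called with all arrays but was without replicate 1 of *rpb1-12XS2ACTD* (1.33, adjusted p = 0.00371).

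Another transporter remnant, SPBC1348.11, gave −0.23, 0.05 and −0.47 against 0.66, −0.05 and 0.13 with DMSO, where the strains overlapped, and −0.41, −0.64 and −0.86 against 0.19, 0.29 and 0.36 with LatA, where they did not. The LatA difference was 0.92 ± 0.18 (adjusted p = 0.0202). SPAC977.04 showed the other order. With DMSO it gave −1.04, −1.28 and −1.03 against −0.11, −0.06 and 0.07, a difference of 1.08 ± 0.22 (adjusted p = 0.0463), and with LatA 0.60, 0.06 and −0.50 against 0.62, 0.25 and 0.34, which overlap (0.35, adjusted p = 0.376). In the control strain this gene rose with LatA to values that overlap those of *rpb1-12XS2ACTD*.

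Among the 18 genes of other metabolic enzymes, 1 was higher with DMSO and 2 with LatA (by the methods' test 0 and 1). *hhy1*, annotated as a chlorohydrolase or deaminase, gave −0.19, −0.41 and −0.19 against 0.19, 0.48 and 0.70 with DMSO. With LatA it gave −0.39, −0.49 and −0.67 against 1.08, 1.05 and 1.02. The strains were apart with both treatments, by 0.72 ± 0.12 (adjusted p = 0.0259) and by 1.57 ± 0.12 (adjusted p = 0.000105), the latter a 2.96-fold difference and the largest call of the 70 genes in that comparison. *eno102*, for a second enolase of glycolysis, differed by 0.79 with LatA (adjusted p = 0.0177) and by 0.15 with DMSO. Its LatA call was lost with the methods' test and when any of 4 LatA arrays was left out (limma adjusted p up to 0.0768). *pdc101* and *icl1*, for a pyruvate decarboxylase and isocitrate lyase, differed by 0.03 or less in size with either treatment.

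The 15 membrane transporters had medians near that of all genes, 0.04 with DMSO and 0.06 with LatA. In limma 0 passed in the DMSO comparison with all arrays. At an unadjusted p under 0.05, 4 were higher and 1 lower, against 699 and 128 of all 4875 genes. Without the array that stood apart 2 passed as higher, *str3* and SPBPB10D8.01, where 4.12% of all genes passed in either direction. *str3* differed by 1.18 with all arrays (adjusted p = 0.0891) and by 1.44 without that array (adjusted p = 0.00994). In the LatA comparison 2 passed as higher and 1 as lower. *pho841*, for a predicted inorganic phosphate transporter, gave −0.53, 0.15 and −0.06 against −0.17, 0.22 and 0.09 with DMSO, where the strains overlapped, and −1.23, −0.93 and −0.97 against 0.34, 0.06 and 0.29 with LatA. The LatA difference was 1.27 ± 0.17 (adjusted p = 0.00371), and the gene fell by 0.90 with LatA in *rpb1-12XCTD* (adjusted p = 0.00205).

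SPBPB10D8.01, another membrane transporter, gave −0.03, −0.03 and −0.14 against 0.03, 0.79 and 0.74 with DMSO and −0.63, −0.85 and −0.70 against 0.27, 0.16 and 0.22 with LatA. Its strains differed by 0.95 ± 0.16 with LatA (adjusted p = 0.0117), and by 0.59 with DMSO, which was not called with all arrays but was without the array that stood apart (0.84, adjusted p = 0.000623). *mfs2*, for a transporter of unknown specificity, was the only subtelomeric gene called lower between the strains with all arrays. It gave 1.23, 0.88 and −0.02 in *rpb1-12XCTD* with LatA against −0.35, −0.46 and −0.66, a difference of −1.19 ± 0.27 (adjusted p = 0.0337), after 0.32, 0.04 and 0.03 against 0.02, −0.60 and −0.02 with DMSO. The spread of the control arrays with LatA was wide here, and replicate 3 lay well below the other 2 arrays. The call was lost with the methods' test and when any LatA array other than that one was left out, the difference running from −1.55 to −0.92 without single arrays.

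Of the 4 genes for transcription factors, SPBC1348.12 was higher with both treatments. This zinc finger gene, in position 13 from the left end of chromosome II, gave −0.38, −0.64 and −0.26 against −0.03, 0.86 and 0.90 with DMSO and −0.08, 0.03 and −0.10 against 0.96, 0.99 and 1.02 with LatA. The differences were 1.00 ± 0.20 and 1.04 ± 0.20 (adjusted p = 0.0489 and 0.0192), and with DMSO replicate 1 of *rpb1-12XS2ACTD* lay nearer to the control than to its own replicates. The other 3 (*toe4*, *cha4*, SPAC11D3.17) differed by −0.59 to 0.33, none called.

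Among the 3 cell surface glycoprotein genes, *pfl9* was higher with DMSO and LatA, by 0.86 and 0.62 (adjusted p = 0.0259 and 0.0369), the LatA call being lost with the replicate block (adjusted p = 0.0653). *pfl8* differed by 0.57 with LatA at an adjusted p of 0.0301, just under the fold threshold, and *pfl6* by 0.29. The 4 galactose genes, *gal1*, *gal7* and *gal10* in a cluster at the right end of chromosome II and *mel1* (an alpha-galactosidase) at the right end of chromosome I, differed by 0.24 to 1.01 with DMSO and by 0.18 to 0.50 with LatA. None of the 4 was called with all arrays, and without the array that stood apart *gal10* and *gal1* were called with DMSO, at 1.29 and 0.88 (adjusted p = 0.00233 and 0.0331).

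**Figure D2:**
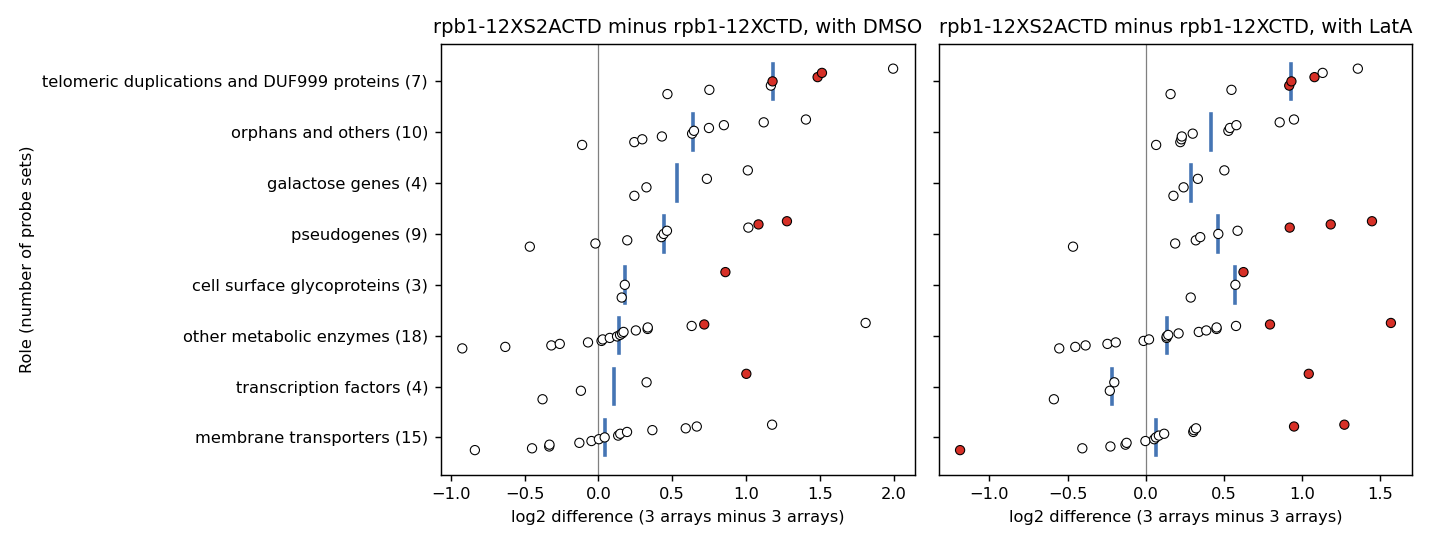
Log2 difference, *rpb1-12XS2ACTD* minus *rpb1-12XCTD* (x axis), of the 70 subtelomeric genes by role (y axis), with DMSO (left) and LatA (right), a point for each gene, red where called, and a blue bar for the median of a role. The telomeric duplications and DUF999 genes have the highest medians, 1.18 and 0.93, while the transporters center near 0 with both treatments.

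Pooled over the ends, the differences were larger toward the chromosome ends. Of the 23 genes within the outermost 20 positions, 7 were higher with DMSO and 8 with LatA, with medians of 0.75 and 0.58, and 23 and 22 of them lay above 0. Of the 25 genes in positions 21 to 40, 1 and 2 were higher, with medians of 0.24 and 0.23. Of the 21 genes in positions 41 to 60, none passed with DMSO, LatA gave a single call in each direction, and the medians were −0.12 and −0.13. The innermost genes of the right ends were in positions 28 and 22, so all genes in positions 41 to 60 lie at the left ends. The zones thus also differ in the ends they hold, and they were not split by end. The positions were divided with the results known, and the trend is given without a test.

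Probe sets that match several genes were unevenly spread, with 11 of 14 in the outermost positions and 0 in positions 41 to 60. Among genes with a probe set of their own, the medians in the 3 zones were 0.74, 0.22 and −0.12 with DMSO and 0.54, 0.27 and −0.13 with LatA, so the order was the same without the repeated genes. Of the 56 genes with a probe set of their own, DMSO gave 4 higher calls and LatA 9 higher and 1 lower. Of the 14 _s_at probe sets, 4 and 3 were higher, and all 14 differences were above 0 with either treatment, where 70.4% and 38.1% of all genes lay above 0. Leaving out replicate 1 of *rpb1-12XS2ACTD* with DMSO gave 12, 6 and 0 higher genes in the 3 zones, 2 lower genes in the innermost, and medians of 1.00, 0.24 and −0.18.

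**Figure D3:**
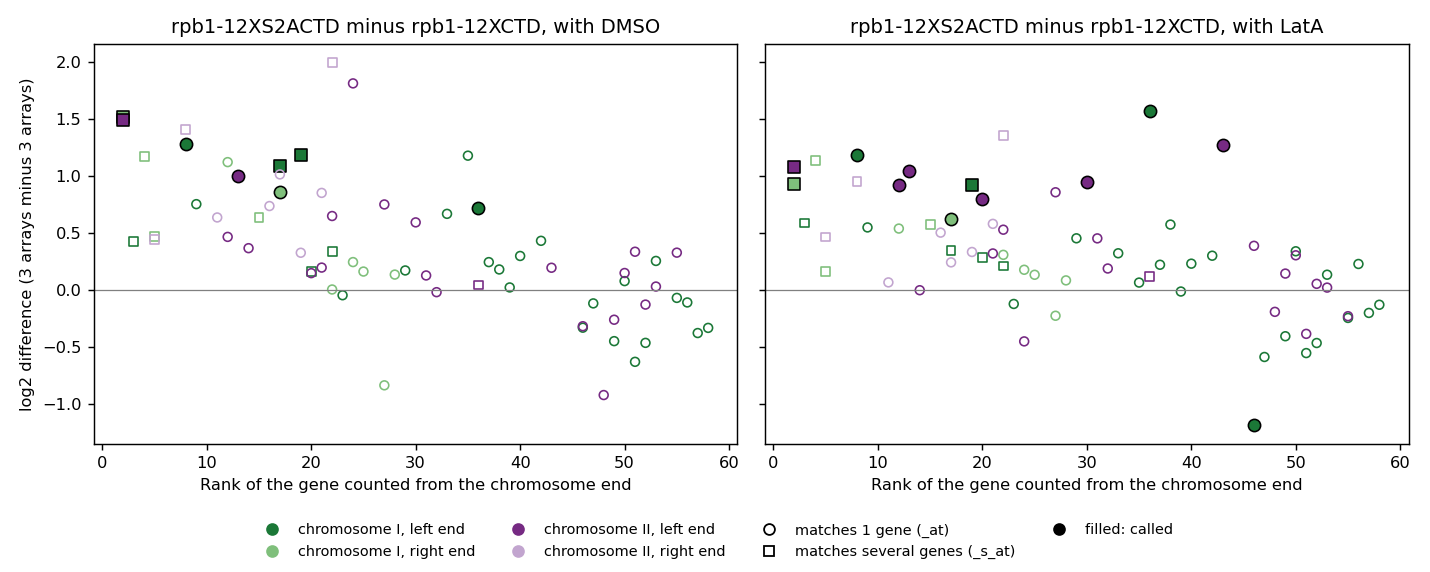
Log2 difference, *rpb1-12XS2ACTD* minus *rpb1-12XCTD* (y axis), against the position of the gene counted from its chromosome end (x axis) for 69 subtelomeric genes with DMSO (left) and LatA (right). Colors give the end, squares mark probe sets that match several genes, and filled symbols are called genes. Of the 8 genes called with DMSO, 7 lie in the outermost 20 positions.

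The genes nearest each end showed the same direction. All are read by _s_at probe sets, so their values cannot be assigned to a single copy or end. SPAC212.09c (position 3, chromosome I left) differed by 0.43 and 0.59 with DMSO and LatA. SPBCPT2R1.05c (position 5, chromosome II right) differed by 0.44 and 0.46, and none of these was called in the main fit. With LatA SPAC212.09c was called by the methods' test (adjusted p = 0.0312) and in limma with the replicate block (adjusted p = 0.0356). SPAC750.07c and SPBC1348.01, the nearest at the other ends, are described above. The helicase probe sets left out by the rule, 2 of *tlh2* and 1 of SPAC212.06c, lie among them in positions 1 and 7. All 3 were higher in *rpb1-12XS2ACTD*, by 2.73 to 3.94 with DMSO and by 2.38 to 4.46 with LatA.

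By end, the median differences with DMSO were 0.17 and 0.47 at the left and right of chromosome I and 0.19 and 0.79 at the left and right of chromosome II. With LatA they were 0.22, 0.31, 0.31 and 0.48. The 8 genes at the right end of chromosome II, among them the galactose cluster and SPBPB2B2.07c, were all above 0 with both treatments, but limma called 0 of them with all arrays (the methods' test called 1, SPBPB2B2.07c, with LatA) and 4 were called higher with DMSO without the array that stood apart. Farther in, the 85 genes within the 30 positions beyond the subtelomeric genes had medians of 0.05 and −0.005, with 0 calls in the DMSO comparison and 3 in that with LatA, all lower (by the methods' test 0 with DMSO and 1 higher and 3 lower with LatA). The 23 genes at the outermost 20 positions of each end of chromosome III gave medians of 0.10 and −0.03 and 0 calls. At an unadjusted p under 0.05 with DMSO, 12 of the 85 neighbors were higher and 4 lower in limma. For the 23 at chromosome III these counts were 6 and 0, and for all 4875 genes 699 and 128. With LatA they were 12 and 16 for the neighbors, 0 and 0 at chromosome III, and 368 and 752 for all genes. Without the array that stood apart, limma with DMSO called 1 higher and 3 lower of the 85 neighbors and 0 of the 23 at chromosome III. The contrast of the subtelomeric genes with these was not tested.

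With LatA against DMSO, 13 of the 70 genes were called in each strain. In *rpb1-12XCTD*, 7 of the 70 rose and 6 fell, where 10.6% of all genes rose and 2.58% fell. In *rpb1-12XS2ACTD*, 7 rose and 6 fell, against 6.13% and 5.37% of all genes. The median changes were −0.11 and −0.01, against 0.10 and −0.01 over all genes, and 5 genes were called in both strains, namely *cmt2*, SPBCPT2R1.02, *gal10* and *dak2*, which rose, and SPAC11D3.01c, which fell. In *rpb1-12XCTD* the count was 7 without its replicate 2 with LatA, and the methods' test called 0 after adjustment. With quantile normalization, under which the median of all genes moved from 0.10 to −0.02, 4 rose and 14 fell in *rpb1-12XCTD*, and with median centring 6 rose and 8 fell.

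*cmt2*, for a predicted methyltransferase that uses S-adenosylmethionine, had the largest change. It gave −2.95, −2.98 and −2.82 in *rpb1-12XCTD* with DMSO and 1.94, 0.95 and 0.79 with LatA, a rise of 4.14 (17.7-fold, adjusted p = 0.000134). In *rpb1-12XS2ACTD* it gave −2.16, −0.89 and −0.28 with DMSO and 1.28, 0.28 and 0.76 with LatA, a rise of 1.88 (adjusted p = 0.00793). The strains were alike in range with LatA, and with DMSO the *rpb1-12XS2ACTD* arrays were all higher and widely spread, with a difference of 1.81 (adjusted p = 0.0978) that was called without replicate 1 (2.34, adjusted p = 0.00389).

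SPBCPT2R1.02, for a hypothetical protein and read by an _s_at probe set, gave −1.76, −2.95 and −1.58 with DMSO and 1.12, 0.46 and 0.19 with LatA in *rpb1-12XCTD*, and −1.03, −0.86 and −0.19 and then 1.67, 1.5 and 1.44 in *rpb1-12XS2ACTD*. It rose by 2.69 and 2.23 (adjusted p = 0.000328 and 0.00118), and the *rpb1-12XS2ACTD* arrays were higher than the control with each treatment, by 1.41 and 0.95, neither called with all arrays. Without the array that stood apart the DMSO difference was called, at 1.58 (adjusted p = 0.0369). *gal10*, for an enzyme that interconverts UDP-galactose and UDP-glucose, gave −1.31, −1.76 and −1.20 and then 0.58, 0.28 and 0.12 in *rpb1-12XCTD*, and −0.96, −0.14 and −0.12 and then 0.67, 0.62 and 0.43 in *rpb1-12XS2ACTD*. It rose by 1.75 and 0.98 (adjusted p = 0.000297 and 0.00724), whereas its cluster neighbor *gal1*, for galactokinase, fell in *rpb1-12XS2ACTD* by 0.66 (adjusted p = 0.0263) and *gal7* changed by −0.54 and −0.53, below the fold threshold. The 3 genes of the cluster thus did not move together with LatA.

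Other genes that rose included *dak2*, for a dihydroxyacetone kinase, by 0.76 and 1.04 in the control and mutant strains. In *rpb1-12XCTD* alone *ftm3* (1.11), SPAC977.04 (1.17) and *toe4* (0.61) were called, and in *rpb1-12XS2ACTD* alone *mal1* (1.03), for a maltase, *eno102* (0.75) and *hhy1* (0.60). These splits are of calls, since no difference between the responses passed its own test below.

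Several of the genes that fell encode transporters. *str3*, for a siderophore-iron transporter, gave 0.99, 1.29 and 2.29 in *rpb1-12XS2ACTD* with DMSO and −0.07, −0.18 and −0.14 with LatA, a fall of 1.65 on the log2 scale (adjusted p = 0.00175). In *rpb1-12XCTD* it gave 0.17, 0.79 and 0.07 and then −0.15, −0.15 and −0.28 (−0.54, adjusted p = 0.16). All DMSO arrays thus lay above all LatA arrays in both strains. SPAC186.06, a hypothetical protein gene, gave 0.87, 1.45 and 1.01 and then 0.07, 0.00 and −0.33 in *rpb1-12XS2ACTD*, a change of −1.20 (adjusted p = 0.0137), and −0.79, −0.00 and 0.77 and then −0.42, −0.60 and −0.84 in *rpb1-12XCTD*, where the arrays overlapped.

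In all, 4 of the 15 transporter genes fell in *rpb1-12XCTD* (*pho841*, *sul2* for sulfate, SPBPB10D8.01 and the predicted malate permease SPBPB10D8.07c, by 0.65 to 0.90 on the log2 scale) and 2 in *rpb1-12XS2ACTD* (*str3* and the hexose transporter *ght3*, at −0.67), while 0 rose in either strain. By the methods' test 0 of the 15 fell in *rpb1-12XCTD* and 1, *str3*, in *rpb1-12XS2ACTD*. The calls of *sul2* and *ght3* (adjusted p = 0.0497 each) were lost in 15 of 21 alternatives each, and without single arrays their changes ran from −1.24 to −0.45 and from −0.84 to −0.39. The other falls were of *pfl8* and SPAC11D3.01c in *rpb1-12XCTD* and of SPBPB2B2.08 and SPAC11D3.01c in *rpb1-12XS2ACTD*. Large differences that were not called went with wide replicates: SPBPB2B2.18, of a dubious reading frame, changed by 1.73 and 1.16, the amino acid transporter gene *put4* by −1.30 and −0.69, *urh1* by −0.91 in *rpb1-12XCTD*, and *frp1*, for a ferric-chelate reductase, by −0.85 in *rpb1-12XS2ACTD*.

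**Figure D4:**
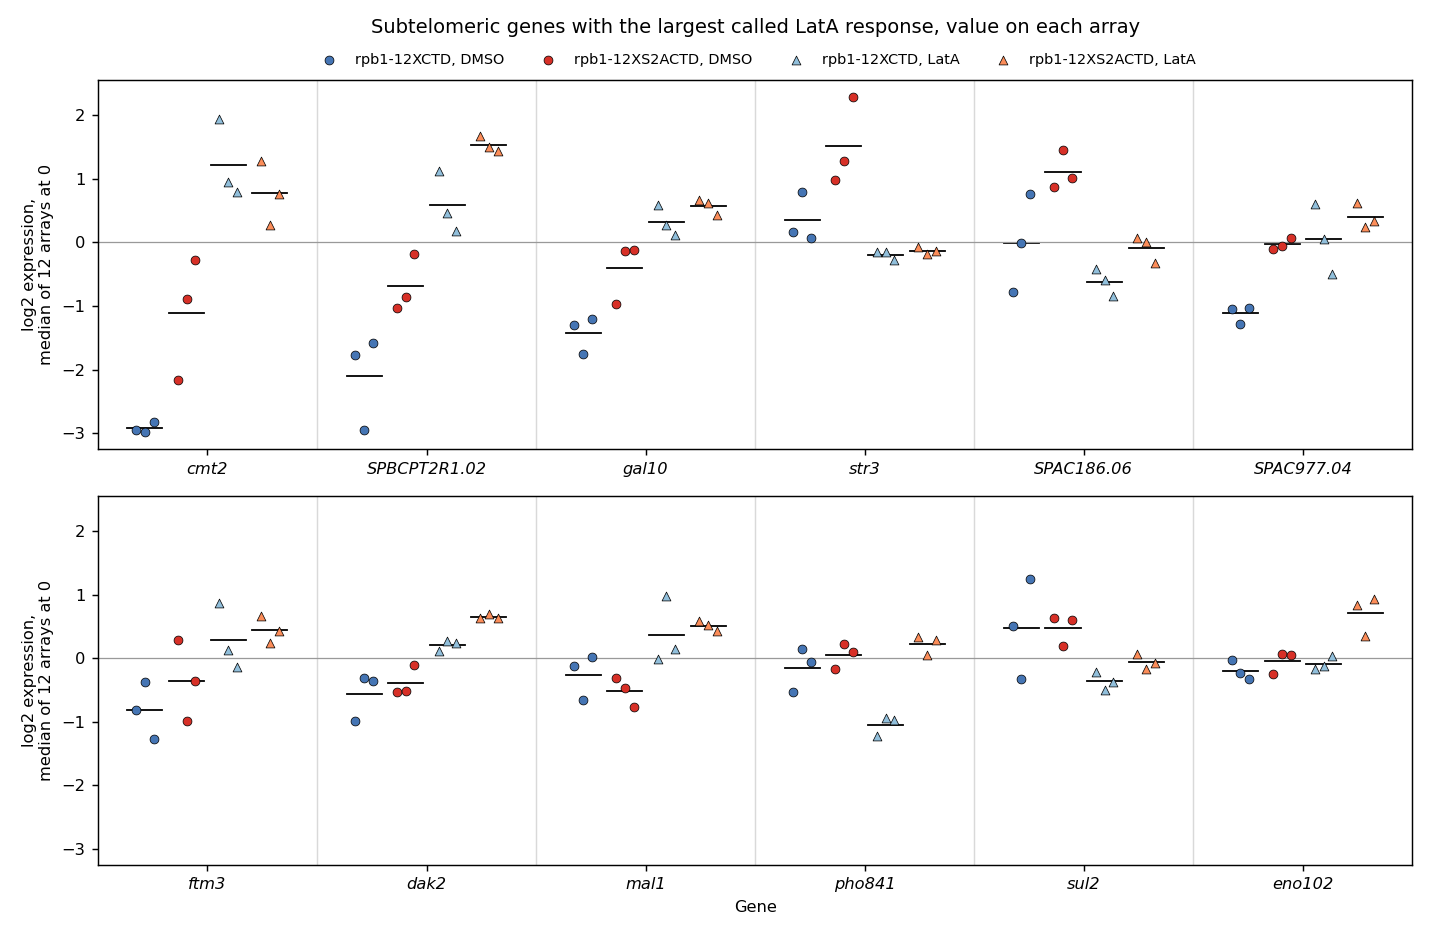
Log2 expression (y axis, median of the 12 arrays at 0) of the 12 subtelomeric genes with the largest called LatA response in either strain, a point for each array and a bar for the mean of a group. *cmt2*, SPBCPT2R1.02 and *gal10* are low in *rpb1-12XCTD* with DMSO, intermediate in *rpb1-12XS2ACTD* with DMSO and high in both with LatA.

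The LatA response of *rpb1-12XS2ACTD* minus that of *rpb1-12XCTD* was called for 0 of the 70 genes, where 0.0205% of all genes were called in either direction by limma. At an unadjusted p under 0.05, 5 had a higher and 5 a lower response in *rpb1-12XS2ACTD*. Of all 4875 genes, 56 had a higher and 480 a lower response at this cut. The largest values were −2.26 for *cmt2* (adjusted p = 0.328), −1.11 for *str3* (adjusted p = 0.426) and 1.08 for *pho841* (adjusted p = 0.193), and with quantile normalization 2 genes were called.

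In all 40 of the 70 genes were called in no comparison. Of 34 genes for heterochromatin and telomere factors, among them *swi6*, *clr4* and *taz1*, 0 were called between the strains by limma or by the methods' test, with medians of 0.16 with DMSO and −0.07 with LatA. At an unadjusted p under 0.05, limma gave 8 higher and 0 lower with DMSO and 1 higher and 6 lower with LatA. At this cut 699 of all 4875 genes were higher and 128 lower with DMSO, and 368 and 752 with LatA. Without the array that stood apart, 2 of the 34 were called higher with DMSO, against 4.12% of all genes in either direction. With LatA in *rpb1-12XCTD* 5 of the 34 rose (*ago1*, *dcr1*, *rdp1*, *chp1* and *chp2*), where 10.6% of all genes rose. In *rpb1-12XS2ACTD* 1, *asf1*, fell, where 5.37% of all genes fell. The methods' test called 0 of the 34 for the LatA effect in either strain, and 0.308% and 10% of all genes. Of the genes specific to mating type and sexual development, 2 of 7 probe sets of M cell genes, for *mfm2* and *mam1*, were lower in *rpb1-12XS2ACTD* with LatA. At the threshold 0 of 2 P cell genes differed. Of 4 meiotic or spore genes 1, *spn6*, was higher with DMSO and LatA, by 0.86 and 0.68 (limma adjusted p = 0.0259 and 0.0317). The methods' test called 2 of the 7 M cell probe sets lower with LatA, and 0 of the 4 meiotic or spore genes with either treatment. The part of these genes in the subtelomeric differences was not tested.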

How the data were processed

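RNA of 12 cultures was measured on 12 Affymetrix arrays. The authors normalized the arrays by RMA (version not given in the sources used here) and deposited log2 values. Each probe set has a median of 0 over the arrays, by a centring step that the sources do not describe, so a filter on low signal was not possible. Genes were named through the gene list of the study (63 of 70), used for names only and held in part, and through the array annotation (7). Order along the chromosomes came from RefSeq (ASM294v3), and 69 of the 70 were found. Coordinates and sequences were not used here.

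A linear model with 4 group means was fitted in limma 3.58.1 (R 4.3.3), with tables made in Python 3.11.15, and 5 comparisons were drawn from it. All 4875 probe sets entered each test. The procedure was tested on simulated data. The precision is limited by 3 arrays per group. The genes, lists, zones and tests were chosen with earlier results of these data known. The list of heterochromatin factors leaves out 1 gene, which is not reported here. Genes were given in full where called, as the 12 with the largest difference between strains and the 6 with the largest LatA response, and otherwise by role, by chromosome end and as the 3 largest that were not called in a comparison.

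Deviations from the group means correlated at 0.34, 0.20 and 0.26 for arrays of the LatA groups with the same replicate number, and at −0.40 to 0.34 over all 18 such pairs. What a replicate number stands for is not given in the sources, so this pairing of the LatA groups comes from the values. As alternatives, the 6 arrays of a comparison were fitted alone, by limma or by the methods' test (equal variances, the same thresholds), the replicate number was added as a block, limma was run with its trend and robust options or with array weights, the arrays were centred or quantile normalized, the fold threshold or the _s_at and _x_at probe sets were dropped, and each array was left out.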

Additional observations from a re-analysis of the deposited data

How the results depend on the processing

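With DMSO, the count of subtelomeric genes called between the strains was 8. It fell to 0 with the 6 DMSO arrays fitted alone and with the methods' test (15 without adjustment), to 5 with the replicate number as a block and with the trend and robust options, and to 3 with quantile normalization and with 56 genes left after probe sets that match several genes were dropped. Without single arrays it ran from 0 to 21. The median difference of 0.31 became 0.23 with array weights, 0.18 with quantile normalization and 0.19 without probe sets that match several genes, and ran from 0.24 to 0.32 without single arrays. With LatA, the count of 13 became 23 with array weights and 22 with quantile normalization and ran from 4 to 16 without single arrays, where fewer arrays are tested. The median of 0.30 became 0.40 with quantile normalization and 0.23 without the repeated genes, with 0.23 to 0.38 without single arrays. With the 6 LatA arrays paired by replicate number as a block, an alternative chosen after seeing the data, 18 genes were called, the 13 among them. The same 6 arrays without the block also gave 18, while the block in the fit of all 12 arrays gave 11, of which 10 were among the 13. For the LatA effect in *rpb1-12XCTD*, the count of 13 became 0 with the methods' test and 21 with no fold threshold (7 to 14 without single arrays), and the median of −0.11 became −0.21 with median centring and −0.25 with quantile normalization. In *rpb1-12XS2ACTD* the count of 13 became 7 with the methods' test. For the difference in response, 2 genes were called with quantile normalization, and the median of −0.032 became 0.069 with array weights, 0.062 with median centring and 0.16 with quantile normalization. The cause of these shifts was not tested. Of the named genes, 0 calls reversed in direction under any alternative run, 0 of the 8 DMSO calls and 3 of the 13 LatA calls between strains held in each of them. The deposited values keep no signal over background, so the limit set by dim probe sets is unknown.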
